A study of Mus musculus with 12 samples.

Results

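The SR and hnRNP genes encode the main families of proteins that choose which exons are spliced into messenger RNA. They were taken from the gene count table as every row whose symbol begins with Srsf and a digit, Hnrnp, Hnrp, Tra2a or Tra2b. This gave 33 of 24421 genes, of which 11 encode SR proteins, 2 encode the Tra2 proteins and 20 encode hnRNP proteins. The rule reads gene names alone, but these families were picked with earlier results of these data known. All 33 had at least 10 counts in each of the 12 libraries, so all 33 were tested.

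RNA came from the striatum of both hemispheres of male mice of the inbred strain C57BL/6J. The treated mice, 6 libraries, received varenicline at 2 mg/kg, a partial agonist of nicotinic acetylcholine receptors that is used to stop smoking. The control mice, 6 libraries, received saline. All mice of both groups drank 20% ethanol for 2 h, starting 3 h into the dark phase, over 3 cycles of 2 days. Each mouse got a saline injection in the first cycle, and in the following 2 cycles the assigned injection came 30 min before the second day's session. Tissue was taken after the last session, so the groups differ in the assigned injection among mice that all drank. Ethanol intake was not analysed here, so an effect of the drug cannot be told apart from a difference in intake. A group without ethanol was not analysed either. The labels give neither age nor the number of animals behind a library, so p-values measure the spread between these libraries, which may be technical in part. Libraries held 13340420 to 24522349 counts with varenicline and 14040416 to 27917715 with saline.

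SR proteins carry RNA recognition motifs and a tail rich in arginine and serine. They bind enhancer sequences in exons and promote their inclusion once kinases of the CLK and SRPK families have phosphorylated the tail. hnRNP proteins coat new transcripts and often oppose SR proteins at neighbouring sites. Many genes of both families limit their own output by splicing in a "poison" exon, which carries an early stop codon and sends the transcript to nonsense-mediated decay. In neurons these families act beside brain regulators such as Nova, Rbfox and Elavl proteins on channels, receptors and synaptic proteins.

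Annotation of such non-productive transcripts was frequent among the 33 genes. In GENCODE vM21, 11 of 13 SR and Tra2 genes (84.6%) and 10 of 20 hnRNP genes (50%) had a transcript annotated as nonsense-mediated decay, compared with 27.4% of the 14277 protein-coding genes tested. A transcript with a retained intron was annotated for 76.9% of SR and Tra2 genes and 70% of hnRNP genes, against 56.9% of all. A separate internal exon that occurs in a decay transcript, overlaps no exon of the gene's protein-coding transcripts and holds the stop codon was found for 7 of 13 SR and Tra2 genes (53.8%) and 2 of 20 hnRNP genes (10%), against 7.05% of all. These shares describe the annotation, which is richer for well-studied genes. The sequences below show 5 of these exons, from the first base of the exon through the annotated stop codon, which is in capitals. They are shown because the counts include some of these exons and leave out others.
Srsf7: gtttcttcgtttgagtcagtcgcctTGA
Srsf3: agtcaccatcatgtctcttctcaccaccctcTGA
Tra2b: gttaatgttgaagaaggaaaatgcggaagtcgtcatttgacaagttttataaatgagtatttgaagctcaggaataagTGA
Tra2a: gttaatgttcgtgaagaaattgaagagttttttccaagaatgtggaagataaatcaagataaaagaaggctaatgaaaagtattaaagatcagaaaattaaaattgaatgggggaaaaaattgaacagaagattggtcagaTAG
Hnrnpl: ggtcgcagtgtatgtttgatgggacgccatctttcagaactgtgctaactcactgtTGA

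The exon of Srsf7 lies at chr17:80204622-80205081 on the minus strand (GRCm38) and that of Srsf3 at chr17:29039454-29039909 on the plus strand. Both are wholly inside the exons listed in the count table, at 460 and 456 bases, so the counts of Srsf7 and Srsf3 include reads of these exons. The exons of Tra2b (chr16:22258865-22259261, minus), Tra2a (chr6:49252803-49253108, minus) and Hnrnpl (chr7:28817335-28817404, plus) share no base with the counted exons. Other exons of their decay transcripts may still be counted. Of 11 such exons among the 33 genes, which include overlapping forms of the Tra2b exon, 2 were counted in full and 9 not at all. The gene counts therefore do not separate productive from non-productive transcripts.

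**Figure D1:**
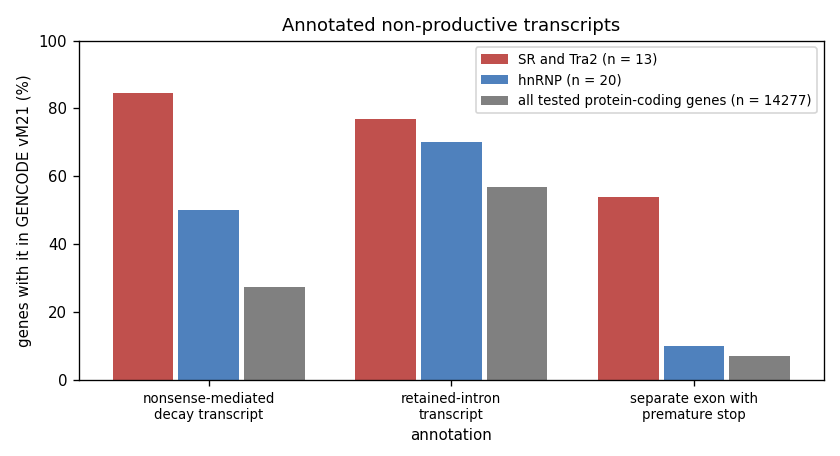
Share of genes (y axis, percent) with each kind of annotated non-productive transcript in GENCODE vM21 (x axis), for SR and Tra2 genes, hnRNP genes and all tested protein-coding genes. The SR and Tra2 bar for decay transcripts stands at 84.6% and the bar for all genes at 27.4%.

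In the varenicline libraries most of these genes were a little more abundant. Of the 33 genes, 29 had a log2 fold change above 0, against 52.3% of the 15111 genes tested, and the median was 0.09, against 0.01 over all genes. None passed an adjusted p of 0.05 in edgeR's quasi-likelihood test, 0 higher and 0 lower, where 0.00% of all genes did. The lowest adjusted p was 0.147. At an unadjusted p under 0.05, 11 of the 33 genes were higher, where 7.27% of all genes were, and 0 were lower, where 9.64% of all genes were. The 11 were Srsf7, Srsf6, Srsf2, Tra2b, Hnrnpl, Tra2a, Hnrnpa1, Hnrnpd, Hnrnpdl, Srsf1 and Srsf10. By class these were 5 of 11 SR genes, 2 of 2 Tra2 genes, 3 of 7 genes of hnRNP A, B and D, 1 of 5 of hnRNP C, K, L and M, and 0 of 4 in each of hnRNP F and H and hnRNP R and U. DESeq2 called 1 of the 33 genes, Srsf7, at an adjusted p under 0.05, where it called 0.926% of all genes as higher, and had 12 at an unadjusted p under 0.05, where 7.80% of all genes were. limma-voom with sample weights called 5, namely Srsf7, Srsf6, Srsf2, Tra2b and Hnrnpl, where it called 4.84% as higher, and had 17 at an unadjusted p under 0.05, where 13.0% of all genes were. Without varenicline 2, 7 genes were higher at the unadjusted threshold, where 6.29% of all genes were, and 0 at the adjusted one, where 0.0265% were. Without varenicline 1 and 3, which have the highest septal and pallidal marker scores, 5 were higher at the unadjusted threshold, where 4.26% of all genes were.

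**Figure D2:**
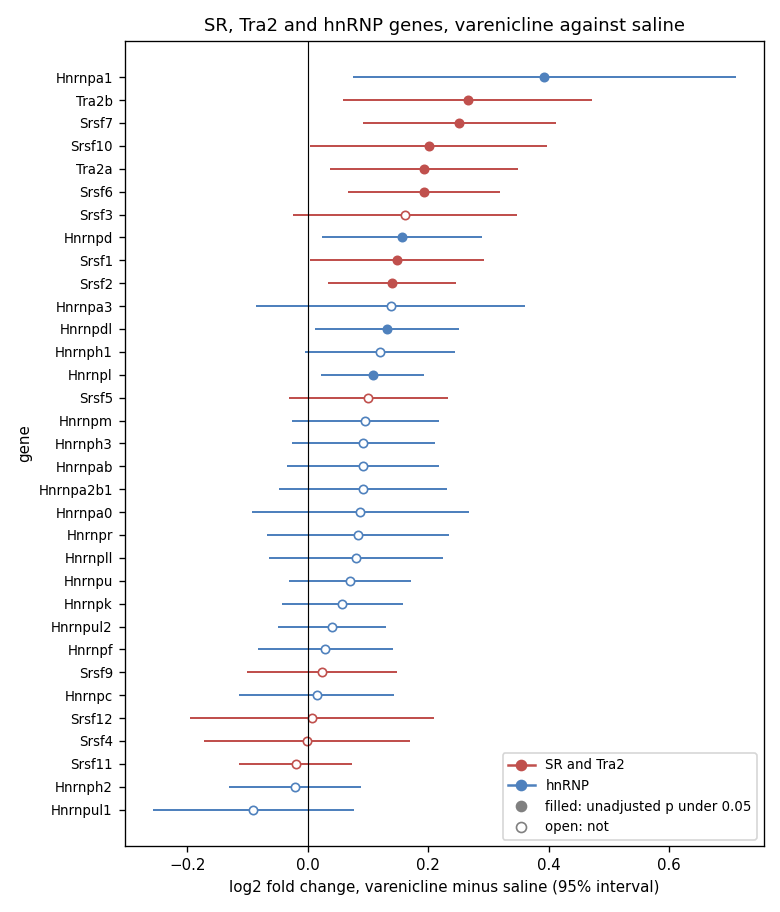
Log2 fold change of each of the 33 genes, varenicline minus saline (x axis), with its 95% interval from the edgeR fit (lines), by gene (y axis). Filled points mark the 11 genes at an unadjusted p under 0.05, all of them to the right of 0, and 4 genes lie to the left.

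Among SR proteins Srsf7 had the smallest p. Srsf7 (ENSMUSG00000024097, chr17:80200080-80207305, mm10) carries a zinc knuckle beside its RNA recognition motif. Its lowest, median and highest values were 104, 126 and 131 CPM (counts scaled to library size with TMM factors) in varenicline libraries, against 84.4, 109 and 112 CPM in saline libraries. Varenicline 1 to 5 were all above the highest saline library, and varenicline 6 lay inside the saline range. The means were 123 ± 9.58 CPM with varenicline and 103 ± 11.3 CPM with saline (SD, n = 6 each), a log2 fold change of 0.25 (SE 0.074, edgeR adjusted p = 0.147). DESeq2 gave Srsf7 an adjusted p of 0.0492, and over all alternatives its adjusted p ran from 0.00803 to 0.9993.

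Srsf6 (ENSMUSG00000016921, chr2:162931508-162937120), an SR protein with a pair of RNA recognition motifs, ran from 131 to 165 CPM with varenicline, median 147, and from 121 to 136 CPM with saline, median 127. All 6 varenicline libraries were above the saline mean, although the groups overlapped. The difference on the log2 scale was 0.19 (SE 0.058, edgeR adjusted p = 0.147). Srsf2, known as SC35 and used as a marker of nuclear speckles, averaged 108 ± 6.45 CPM with varenicline and 97.9 ± 4.42 CPM with saline (SD, n = 6 each). The difference was 0.14 on the log2 scale (SE 0.049, edgeR adjusted p = 0.184), with varenicline 6 at 102 CPM inside the saline range. The exons of Srsf2 overlap those of Mettl23 and Mfsd11 on the opposite strand, over 24.4% and 15.1% of its exon bases. No label says whether the counting used strand, so reads of these genes cannot be told apart there.

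Srsf1, the founding member of the family, had 172, 205 and 215 CPM as its lowest, median and highest values with varenicline, against 158, 187 and 196 CPM with saline. Its log2 fold change was 0.15 and that of Srsf10, which can act as a splicing repressor, 0.20 (edgeR adjusted p = 0.275 and 0.282). Both had 5 of 6 varenicline libraries above the saline mean. Srsf3, the smallest family member, had 0.16 (95% interval -0.02 to 0.35) with values from 123 to 155 CPM in varenicline libraries and from 101 to 148 CPM in saline libraries. Srsf5, the most abundant SR gene per length, averaged 179 ± 18.5 FPKM with varenicline and 169.6 ± 10.2 FPKM with saline on the deposited scale. Its medians went the other way, 171 FPKM with varenicline and 172 FPKM with saline, and varenicline 3 reached 209 FPKM. The log2 fold change on counts was 0.10, and 0.06 without varenicline 3.

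The remaining SR genes showed differences near 0. Srsf9 had a log2 fold change of 0.02, Srsf12 of 0.01, Srsf11 of -0.02 and Srsf4 of -0.001. Their 95% intervals were -0.10 to 0.15, -0.19 to 0.21, -0.11 to 0.07 and -0.17 to 0.17. Srsf12 had the lowest deposited FPKM of the 33, at 6.24 ± 0.578 FPKM with varenicline and 6.18 ± 1.01 FPKM with saline (SD, n = 6 each). The sign of Srsf4 and Srsf12 turned in several alternatives, and 68.8% of the exon bases of Srsf4 are also exon of Gm12992 on the opposite strand.

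Both Tra2 genes, which encode relatives of the fly splicing factor transformer-2, were among the 11. Tra2b (ENSMUSG00000022858, chr16:22245741-22265929) had 56.2, 72.4 and 76.1 CPM as its lowest, median and highest values with varenicline. With saline these were 43.9, 61.3 and 65.1 CPM. As with Srsf7, varenicline 1 to 5 were above every saline library and varenicline 6 was the lowest of its group. The same was true of Srsf2 and Hnrnpl. The share of all genes with varenicline 1 to 5 above every saline library was not counted. The log2 fold change of 0.27 (SE 0.096, edgeR adjusted p = 0.192) was the second largest of the 33. Tra2a (ENSMUSG00000029817, chr6:49243921-49264052) averaged 98.6 ± 9.52 CPM with varenicline and 86.2 ± 7.99 CPM with saline (SD, n = 6 each). The log2 difference was 0.19 (SE 0.073, edgeR adjusted p = 0.203), and the groups overlapped, since saline 3 reached 96.1 CPM. Without varenicline 6, edgeR called Srsf7, Srsf6, Tra2a and Tra2b, with adjusted p of 0.0122, 0.0352, 0.0380 and 0.0289, where 3.06% of all genes were called higher. In that fit 18 of the 33 were at an unadjusted p under 0.05, where 11.3% of all genes were. Without saline 6 instead, the log2 fold change was 0.20 for Tra2b and 0.21 for Srsf7. That fit had 8 of the 33 higher at an unadjusted p under 0.05, where 8.21% of all genes were, and it called 0 of all genes at the adjusted threshold.

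**Figure D3:**
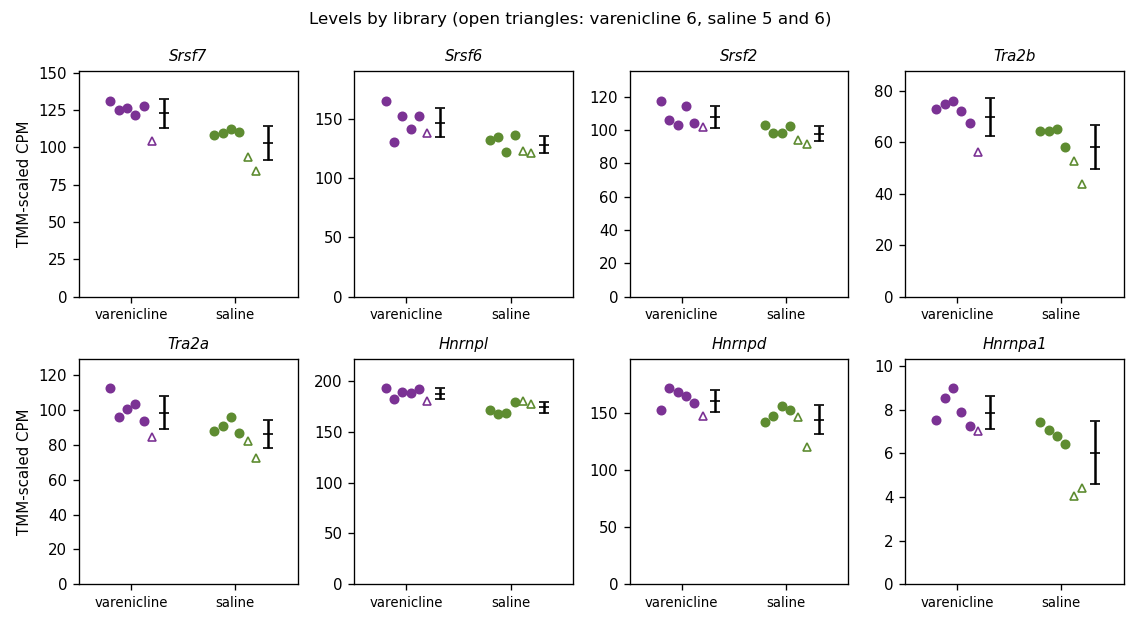
TMM-scaled CPM (y axis, from 0) of 8 genes in each varenicline and saline library (points, x axis), with mean and SD beside them. Open triangles mark varenicline 6, saline 5 and saline 6. In Tra2b these 3 have 56.2, 52.7 and 43.9 CPM, the lowest of the 12.

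Hnrnpl, which binds CA-rich RNA, was the single gene of the 33 with no overlap between groups in TMM-scaled CPM. Hnrnpl (ENSMUSG00000015165, chr7:28810890-28822266) had 181, 189 and 193 CPM as its lowest, median and highest values with varenicline, against 167, 174 and 180.45 CPM with saline. The gap between the groups was small, from 180.94 CPM in varenicline 6 to 180.45 CPM in saline 5, and on the deposited FPKM the groups overlapped, with a lowest value of 82.25 with varenicline and a highest of 82.79 with saline. Every varenicline library lay above every saline library in 0.430% of all genes tested, and below in 0.324%, where 0 of the 33 did. The difference on the log2 scale was 0.11 (SE 0.040, edgeR adjusted p = 0.194; 0.0249 to 0.9993 over the alternatives). In the same class Hnrnpm had a log2 fold change of 0.10, Hnrnpll, a relative of Hnrnpl known from T cells, 0.08 (0.04 without saline 6), Hnrnpk, a KH-domain protein that binds C-rich RNA, 0.06 and Hnrnpc, which binds runs of U, 0.01. Their adjusted p ran from 0.400 to 0.922.

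In the class of hnRNP A, B and D proteins, frequent antagonists of SR proteins, all 7 genes had a log2 fold change above 0, from 0.09 to 0.39, and 3 were at an unadjusted p under 0.05. Of all tested genes, 52.3% were above 0 and 7.27% were higher at that threshold. Hnrnpd, also called AUF1 and known for binding AU-rich elements, had 147, 162 and 172 CPM as its lowest, median and highest values with varenicline, against 120, 147 and 156 CPM with saline. Saline 6 held the lowest of these values, and without it the log2 fold change of 0.16 (SE 0.062, edgeR adjusted p = 0.219) was 0.11. Its relative Hnrnpdl averaged 198 ± 13.9 CPM with varenicline and 180.3 ± 10.6 CPM with saline (SD, n = 6 each), a log2 fold change of 0.13. Hnrnpa2b1, the most abundant of the class per length, averaged 157 ± 14.9 FPKM with varenicline and 147 ± 9.13 FPKM with saline (SD, n = 6 each), with a log2 fold change of 0.09 on counts. Hnrnpa3 had 0.14 (95% interval -0.08 to 0.36) and reached 0.06 without saline 6, whose 113 CPM was the lowest of the 12 libraries. Hnrnpab and Hnrnpa0 had 0.09 each, and Hnrnpa0 had 0.03 without saline 6. The exons of Hnrnpab overlap those of Phykpl on the opposite strand over 31.8% of its exon bases, so the limit given for Srsf2 holds here too.

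Hnrnpa1, the best-known antagonist of SR proteins, had the largest log2 fold change of the 33, 0.39 (SE 0.149, edgeR adjusted p = 0.203). Its counts were low, from 97 to 215 per library, and its levels were 7.02, 7.72 and 8.999 CPM (lowest, median, highest) with varenicline, against 4.05, 6.63 and 7.42 CPM with saline. Saline 5 and saline 6, at 4.05 and 4.40 CPM, were apart from the other saline libraries, which lay between 6.45 and 7.42 CPM. The deposited FPKM put the same gene far higher. Its mean of 69.95 FPKM over 12 libraries was 22.0 times the level of 3.17 CPM per kilobase of exon from the count table, where the median of that ratio over 12978 genes was 1.06. A ratio that high or higher occurred in 0.0308% of them. On FPKM the group means were 76.3 ± 12.2 with varenicline and 63.6 ± 15.3 with saline (SD, n = 6 each), and limma on log2 of FPKM plus 1 gave a log2 fold change of 0.28 (adjusted p = 0.402). Hnrnpa1 has many near-identical pseudogene copies, and no label says how either table treated reads that match several places, so its level is uncertain.

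Of the 33 genes, 28 had a ratio of FPKM to count-based level within 25% of 1. Besides Hnrnpa1 the exceptions were Srsf10 (1.94), Hnrnpa3 (1.79), Hnrnpf (1.505) and Srsf4 (0.350). Per length, on the deposited FPKM scale, mean levels ran from 6.21 for Srsf12 to 174 for Srsf5. Hnrnpa2b1 and Hnrnpk followed at 152 each and Hnrnpu at 145.

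**Figure D4:**
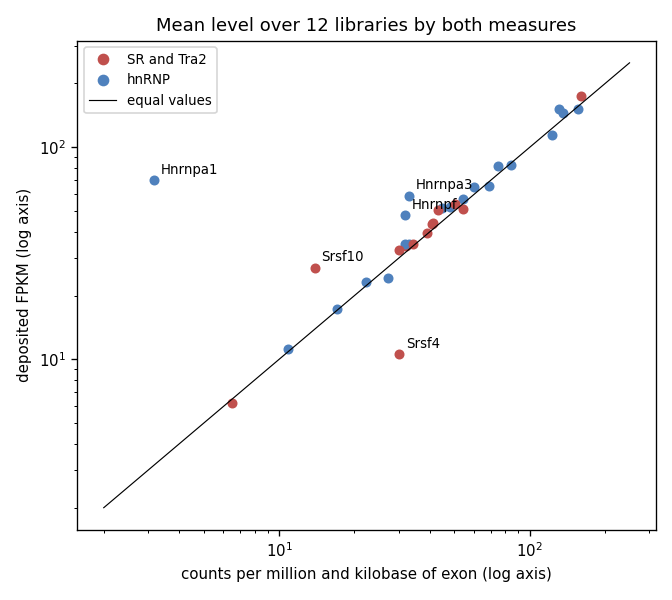
Mean deposited FPKM over 12 libraries (y axis, log scale) against CPM per kilobase of exon (x axis, log scale) for the 33 genes, with the line of equal values. The 5 named genes lie more than 25% from that line, with Hnrnpa1 at a ratio of 22.0.

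The classes F and H, whose members bind runs of G, and R and U, which include the chromatin-associated scaffold protein Hnrnpu, held no gene at an unadjusted p under 0.05. Of all tested genes, 7.27% were higher and 9.64% lower at that threshold. Hnrnph1 came nearest, with values from 258 to 320 CPM with varenicline and from 240 to 278 CPM with saline (log2 fold change 0.12, 95% interval -0.0033 to 0.24). Hnrnph3 had 0.09, Hnrnpf 0.03 and Hnrnph2 -0.02. The exons of Hnrnpf overlap those of 4933440N22Rik and Gm43863 on the opposite strand, over 14.3% and 10.2% of its exon bases. Hnrnpu was the gene with the highest CPM of all 33, with a mean of 512 ± 23.8 with varenicline and 488 ± 19.9 with saline (SD, n = 6 each; log2 fold change 0.07). Hnrnpr had 0.08 and Hnrnpul2 0.04. Hnrnpul1 had the lowest log2 fold change of the 33, -0.09 (95% interval -0.26 to 0.08, edgeR adjusted p = 0.584), and -0.02 without saline 6. It averaged 96.8 ± 6.72 CPM with varenicline and 103 ± 13.6 CPM with saline, and its 3 highest values were 107 CPM in varenicline 6, 113 CPM in saline 5 and 125 CPM in saline 6.

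Summed over genes, SR and Tra2 transcripts had 1496 ± 74.5 CPM with varenicline and 1361 ± 72.8 CPM with saline, and hnRNP transcripts 3721 ± 164 CPM with varenicline and 3530 ± 102 CPM with saline (SD, n = 6 each). No p is given for these sums, since the families were picked with results of these data known. Varenicline 6, saline 5 and saline 6 had the lowest SR and Tra2 sums, at 1363, 1298 and 1243 CPM. The number of genes above their own median over the 12 libraries was 24, 28, 22, 26, 28 and 5 in varenicline 1 to 6, and 11, 6, 17, 18, 7 and 6 in saline 1 to 6. Of the 33 genes, 22 had their lowest value in varenicline 6, saline 5 or saline 6, and in 23 genes varenicline 6 was the lowest of its group. None of these counts by library was made over all tested genes. Whether they are particular to the 33 genes was therefore not tested. The labels name no batch; the titles carry letters of unstated meaning, and these 3 libraries have the last ones, U, W and X. With all 3 left out, an alternative chosen after the values were seen, edgeR called Srsf7, Tra2b and Hnrnpl (adjusted p = 0.00803, 0.0328 and 0.0480), where 2.30% of all genes were called higher. In that fit 8 of the 33 stood higher with an unadjusted p under 0.05, where 9.86% of all genes were.

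**Figure D5:**
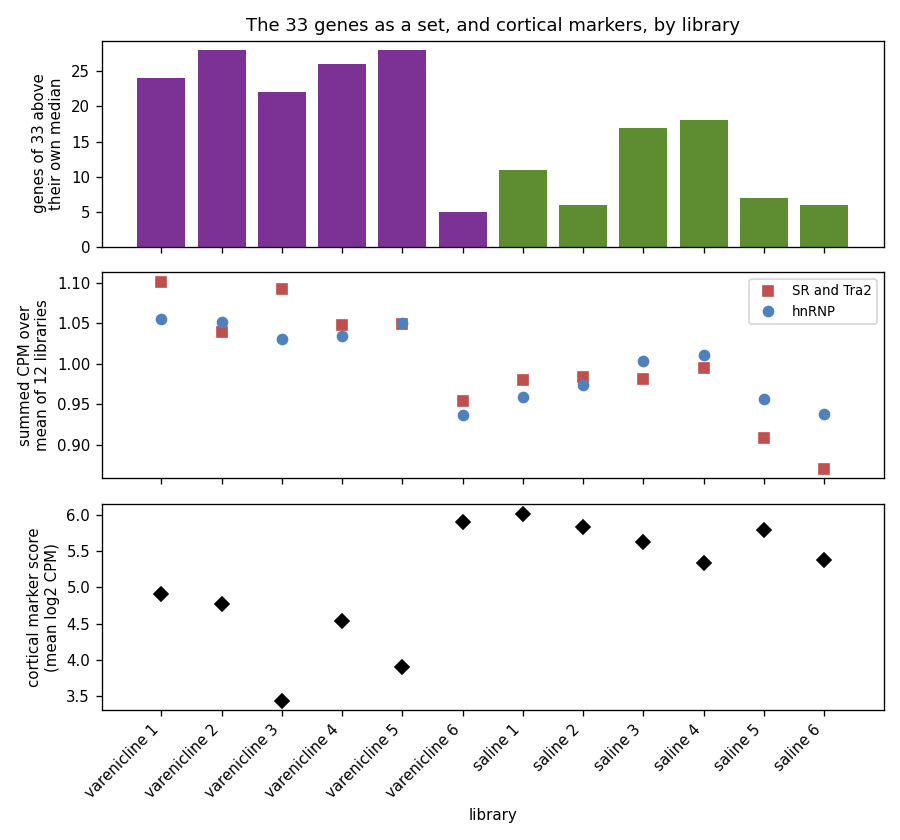
For each library (x axis), the number of the 33 genes above their own median over 12 libraries (top), the summed CPM of SR and Tra2 and of hnRNP genes over the mean of the 12 libraries (middle) and the cortical marker score in mean log2 CPM (bottom). Varenicline 6, with 5 genes above their median, also has the highest cortical score of its group, 5.90.

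Markers of striatal projection neurons, the main cells of the dissected region, were all detected. No marker of any cell list passed the adjusted threshold in edgeR's test. At an unadjusted p under 0.05, 7.27% of all genes were higher and 9.64% lower. Of 14 cortical excitatory neuron markers, 11 were lower at an unadjusted p under 0.05, with a score of 4.58 ± 0.854 mean log2 CPM with varenicline and 5.66 ± 0.271 with saline (SD, n = 6 each). Their summed level ran from 1318 to 2213 CPM with varenicline and from 1930 to 2470 CPM with saline. In varenicline 6 the score was 5.90, inside the saline range of 5.33 to 6.02. Of the 14 striatal projection neuron markers 5, of 11 septal and pallidal markers 8 and of 14 oligodendrocyte markers 7 were higher at that threshold. Beside these, 3 of 12 astrocyte, 1 of 10 endothelial, 0 of 12 microglial and 0 of 10 choroid plexus and ependymal markers were higher and 0 lower. Summed, the striatal, septal and pallidal, and oligodendrocyte markers ran from 6764 to 10965, from 99.9 to 183 and from 11269 to 14842 CPM with varenicline, and from 6255 to 9931, from 90.4 to 117 and from 11906 to 14719 CPM with saline. With the cortical score as a covariate, 1 of the 33 genes, Srsf2, was higher at an unadjusted p under 0.05, where 2.89% of all genes were, and 0 were called at the adjusted threshold, where 0.0794% were; the median log2 fold change was 0.05 and 23 of the 33 were above 0. With that covariate and without varenicline 6, 7 were higher, where 4.97% of all genes were, with a median of 0.16 and 27 of the 33 above 0. In varenicline 1 to 5 the score ran from 3.44 to 4.91, wholly below the saline range. Without varenicline 6 the fit therefore cannot separate score from drug, and with all 12 libraries only varenicline 6 lay inside the saline range. The part of these cell types in the differences was thus not tested. In whole tissue fewer cells of a type and less RNA per cell cannot be told apart. Of 9 nuclear-retained noncoding RNAs 1 was higher and 1 lower at that threshold. Their score was 7.94 ± 0.0897 with varenicline and 7.97 ± 0.144 with saline, and with it as a covariate 13 of the 33 stood higher with an unadjusted p under 0.05, where 9.53% of all genes were.

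The kinases and partners of these proteins gave mixed values, and none passed the adjusted threshold. The counts of these lists stand beside the shares over all genes given above, 7.27% higher and 9.64% lower. Of 10 splicing factor kinases 2 were higher at an unadjusted p under 0.05. Clk1, a kinase of SR proteins, had 163, 183 and 217 CPM as its lowest, median and highest values with varenicline, against 128, 138 and 156 CPM with saline, without overlap (log2 fold change 0.41, edgeR adjusted p = 0.0683). Clk4 had 0.23. Of 26 SR-related proteins 7 were higher and 3 lower. Rbm39 at 0.17, Arglu1 at 0.15 and Srek1 at 0.15 were among the higher. The 3 lower were Srrm4 at -0.44, the largest difference of the list, Sfswap at -0.18 and Rnps1 at -0.13. The highest varenicline value of Srrm4, 39.2 CPM, was in varenicline 6. Of 26 other hnRNP-like proteins 4 were higher and 3 lower. Rbmx, an hnRNP protein encoded on the X chromosome, had 0.15 and Pcbp4 -0.20.

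Of 28 tested brain splicing regulators 1 was higher and 7 were lower at an unadjusted p under 0.05. Khdrbs3, a KH-domain relative of Sam68, had 54.6, 66.4 and 101 CPM with varenicline (lowest, median, highest), against 90.6, 99.9 and 115 CPM with saline, a log2 fold change of -0.52 (edgeR adjusted p = 0.132). Its highest varenicline value was in varenicline 6, at 101 CPM, which also had the highest cortical score of that group, and the other varenicline libraries had 54.6 to 80.4 CPM; the part of cortical cells in this difference was not tested. Tial1, an RNA-binding protein of stress granules, had 0.22 and the neuronal Elavl4 -0.52. Of 49 core spliceosome genes 2 were higher and 2 lower, with a median log2 fold change of -0.01. The lowest p in that list belonged to Prpf40b (-0.19) and Prpf19 (-0.11). A difference between these lists and the SR genes was not tested.

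Promoter windows from RefSeq (GRCm38.p6), 250 bases before to 50 after the start of each gene, were found for 31 of the 33 genes, all but Hnrnpll and Hnrnpul2. These windows were rich in CpG, with a median over genes of 32 CpG, against 21 over the 11395 tested genes with a window. Where a gene had several windows, the one with the most CpG was taken. The letters TGACG, the core of the site bound by the activity-regulated factor CREB, occurred on either strand in 20 of the 31 genes (64.5%) and in 33.8% of all. The full palindrome TGACGTCA, which contains that core, occurred in 1 of the 31, Tra2a, and in 3.5% of all. GGGCGG, the GC box, occurred on either strand in 83.9% and in 67% of all, CCAAT in 58.1% and 42.4%, and TATAAA in 12.9% and 8.86%. The shares were not matched on CpG content, and a match is a description of the sequence alone. The 250 bases before the start site are printed for 4 of the 11 genes at an unadjusted p under 0.05, chosen because they hold the core and to show where it lies, with TGACG and its reverse complement in capitals. Of the 11 genes 7 had the core and 4 did not (Srsf7, Hnrnpa1, Hnrnpd and Hnrnpdl), and of the other 20 with a window 13 had it.
Tra2a: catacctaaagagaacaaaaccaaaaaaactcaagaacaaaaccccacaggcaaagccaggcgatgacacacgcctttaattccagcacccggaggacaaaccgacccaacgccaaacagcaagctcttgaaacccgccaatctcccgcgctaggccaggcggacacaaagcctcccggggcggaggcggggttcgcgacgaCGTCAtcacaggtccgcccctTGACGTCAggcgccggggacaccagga
Tra2b: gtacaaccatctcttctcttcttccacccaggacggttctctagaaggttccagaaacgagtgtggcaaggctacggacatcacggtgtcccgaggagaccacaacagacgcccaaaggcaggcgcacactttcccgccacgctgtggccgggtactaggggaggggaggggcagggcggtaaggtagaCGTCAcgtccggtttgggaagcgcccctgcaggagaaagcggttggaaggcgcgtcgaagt
Srsf6: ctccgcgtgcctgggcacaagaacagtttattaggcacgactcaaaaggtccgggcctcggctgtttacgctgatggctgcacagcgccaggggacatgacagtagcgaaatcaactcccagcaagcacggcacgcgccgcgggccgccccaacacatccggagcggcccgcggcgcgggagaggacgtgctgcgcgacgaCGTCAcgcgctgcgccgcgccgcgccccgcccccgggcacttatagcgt
Hnrnpl: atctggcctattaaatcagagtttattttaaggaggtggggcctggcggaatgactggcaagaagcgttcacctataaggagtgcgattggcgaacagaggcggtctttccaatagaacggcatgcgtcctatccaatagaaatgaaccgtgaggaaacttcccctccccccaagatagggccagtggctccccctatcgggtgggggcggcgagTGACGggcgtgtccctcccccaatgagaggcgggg

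The windows stand at chr6:49264053-49264302 (minus) for Tra2a, chr16:22266006-22266255 (minus) for Tra2b, chr2:162931258-162931507 (plus) for Srsf6 and chr7:28810640-28810889 (plus) for Hnrnpl. The core begins 61 bases before the start in Tra2b, 49 in Srsf6 and 35 in Hnrnpl. In Tra2a it occurs 3 times, between 48 and 24 bases before the start, the last pair forming the palindrome. All distances count from the RefSeq start. For Tra2b that start lies outside the gene span of the count table, which ends at chr16:22265929. In Tra2a, Srsf6 and Hnrnpl the starts of both sources agree. No data on factor binding were analysed here.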

How the data were processed

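Striatal RNA was prepared with a TruSeq kit and sequenced as single 150 nt reads, per the labels' protocols. The tools named in the submitters' processing notes are Trimmomatic and FastQC, TopHat2 with build mm10, featureCounts, DESeq2, and Cuffdiff with Cuffnorm, without versions. The authors deposited whole-number gene counts, FPKM values and a signal of scaled values, from Cuffnorm by its file name. Counts were the main values; FPKM gave levels per length, and both other tables served as alternatives. No pair of the 12 libraries agreed within sampling noise (lowest chi-square per degree of freedom 5.9 over 66 pairs).

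The 15111 genes with at least 10 counts in 6 or more libraries were scaled by TMM and tested together with edgeR 4.0.16 (quasi-likelihood test, varenicline over saline), with Benjamini-Hochberg adjustment over all of them and a threshold of 0.05. Standard errors are the size of the log2 fold change divided by the root of F. Alternatives used DESeq2 1.42.0 and limma 3.58.1 in R 4.3.3. Marker scores are means of log2 CPM with a prior count of 2. The tests were tried on simulated data. Genes were described from a rule of smallest p (8 per direction, 2 per class, 3 per list of other splicing genes) and highest FPKM (3 per family), and the rest of the 33 are given for completeness. The genes and lists were chosen with earlier results of these data known. Exons came from GENCODE vM21; of 307 exons of the 33 genes in the count table, 288 begin at a start annotated there.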

Additional observations from a re-analysis of the deposited data

Results flagged for a closer look

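Among 106 sets of 6 values (the 33 genes and the lists, each within a group), 7 contained a value standing apart, and about 5.3 such sets are expected at 1 in 20. For Srsf7, varenicline 6 had a log2 CPM of 6.71, below the other varenicline libraries at 6.92 to 7.04. For Hnrnpk, varenicline 6 was again lowest, at 8.49, with the others at 8.65 to 8.71. Saline 6 was lowest of its group for Hnrnpd, at 6.91 with the others at 7.15 to 7.29, and for Hnrnpll, at 5.39 with the others at 5.64 to 5.76. The oligodendrocyte score of saline 6 was the highest of its group, 8.12, where the others lay between 7.91 and 7.97. Varenicline 1 had the lowest microglia score of its group, 5.12, with the others at 5.38 to 5.52, and the lowest endothelium score, 5.31, with the others at 5.46 to 5.53.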

How the results depend on the processing

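Besides the reported fit, 26 alternatives were run, and over the 33 genes 800 values kept their direction and side of the adjusted threshold, 45 changed sign and 13 passed the threshold. With 1 library left out, the genes of the 33 past the adjusted threshold numbered 0 to 4 (highest without varenicline 6), those higher at an unadjusted p under 0.05 numbered 7 to 18, and all genes past the adjusted threshold 0 to 1609. The 7 came without varenicline 2, where 6.29% of all genes were higher. The 18 came without varenicline 6, where 11.3% were. The 4 came from the same fit and were all higher, where 463 of the 1609 genes were higher (3.06% of all genes). DESeq2 called 1 of the 33 as higher, and 140 of its 397 calls in all were higher (0.926% of all genes). limma-voom called 5 as higher, and 732 of its 2102 calls in all were higher (4.84% of all genes). In limma-voom 17 of the 33 were higher at an unadjusted p under 0.05, where 13.0% of all genes were. With the cortical score as a covariate 1 of the 33 was higher at the unadjusted threshold, where 2.89% of all genes were, and 12 genes in all passed the adjusted one. Without varenicline 6 as well, 7 were higher at the unadjusted threshold, where 4.97% of all genes were. In that fit the score does not overlap between groups and cannot be separated from drug. Leaving out varenicline 6, saline 5 and saline 6 gave 3 calls of 33, all higher, and 348 of its 1454 calls in all were higher (2.30% of all genes). Leaving out varenicline 1 and 3 gave 5 higher at the unadjusted threshold, where 4.26% of all genes were. Both were chosen after seeing the data. The cause of these changes was not tested.

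The sign of the log2 fold change turned as follows. Srsf4 had 0.0011 with RLE, 0.0046 with upper quartile factors, 0.0028 without a filter, 0.0012 in DESeq2, 0.021 in voom, 0.073 and 0.079 on FPKM plus 1 and plus 0.1, 0.076 on Cuffnorm values, 0.029 with the cortical score, 0.056 without the 3 libraries and 0.007 without varenicline 1 and 3. For Srsf12 these were -0.019 in voom, -0.10 with the cortical score, -0.085 with it and without varenicline 6, -0.0043 without the 3 libraries and -0.072 without varenicline 1 and 3. The cortical score gave Hnrnph3 -0.029, Srsf5 -0.023, Hnrnpu -0.0096, Hnrnpk -0.0062, Hnrnpr -0.060 and Hnrnpc -0.039, and without varenicline 6 as well Hnrnph3 -0.013, Srsf5 -0.097 and Hnrnph2 0.125. Without the 3 libraries Hnrnpa0 had -0.0025 and Srsf9 -0.0078, and without varenicline 1 and 3 Hnrnph2 had 0.0096. With 1 library left out, ranges across 0 were -0.0046 to 0.059 for Hnrnpf, -0.040 to 0.0044 for Srsf11, -0.050 to 0.00041 for Hnrnph2, -0.0085 to 0.055 for Hnrnpc, -0.029 to 0.078 for Srsf12 and -0.040 to 0.066 for Srsf4.

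No paired analysis was possible because the labels number every library as replicate 1 and pair none. At these depths 3 counts correspond to 0.107 to 0.225 CPM, far below every gene of the 33, and such limits cover counting error only.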
